A study of Homo sapiens with 72 samples.

Results

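The mitochondrial ribosomal protein genes are the nuclear genes for the proteins of the ribosome inside mitochondria. They were taken from the differential expression tables as every gene whose symbol is MRPL or MRPS followed by a number and at most 1 letter. That rule found 78 genes among 61541 Ensembl gene IDs, 49 with an MRPL symbol and 29 with an MRPS symbol, and all 78 carried the same symbol in a separate table of gene names. MRPL53 had almost no reads and was not tested in any comparison, so at most 77 of the 78 genes could be called.

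The mitochondrial ribosome makes the few respiratory chain proteins that the mitochondrial genome encodes, and its RNAs come from that genome as well. All of its proteins are made from nuclear genes in the cytosol and imported, so the organelle depends on cytosolic translation of the mRNAs measured here. Symbols beginning with MRPL mostly name proteins of the large subunit and those beginning with MRPS mostly name proteins of the small subunit, but MRPS30 and MRPS18A sit in the large subunit, and MRPS36 is now known as an adaptor of the 2-oxoglutarate dehydrogenase complex. G3BP1 is an RNA-binding protein that nucleates stress granules, the cytosolic condensates of untranslated mRNA that form when cells are stressed, for example with arsenite, and its NTF2-like domain mediates dimerisation.

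The study measured RNA by poly(A) sequencing in 2 human cell lines. Flp-In T-REx 293 cells, a derivative of an embryonic kidney line, stably carried FLAG-tagged G3BP1 that was induced with 1 ug/mL tetracycline for 24 h, and RNA immunoprecipitated with the FLAG tag (RIP, 3 libraries) was compared with input RNA (3 libraries). U2OS osteosarcoma cells were used in a pair of experiments with 2 libraries in each group. The first held wild-type cells, cells with G3BP1 and G3BP2 knocked out, and knockout cells sequenced 24 h after transient Lipofectamine transfection of a G3BP1 transgene. The second held the knockout, the knockout given wild-type G3BP1 by transfection and the knockout given a G3BP1 from which the NTF2 domain was deleted, each without arsenite and with 200 uM sodium arsenite for 2 h. These 24 libraries form 11 groups of the 72 samples in the series; the 48 libraries of editing-based target mapping were not analysed here. The knockout groups were not transfected and no mock-transfected group is labelled, so an effect of G3BP1 and an effect of transfection cannot be told apart in any rescue comparison. No mock immunoprecipitation was analysed here. The labels do not say whether libraries of 1 group came from separate cultures, so p-values measure the spread between these libraries, which may be technical. In bulk RNA, fewer cells and less RNA per cell cannot be told apart.

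Each comparison is a table of the authors' own DESeq2 results. A gene is called here when its adjusted p in the authors' deposited table is under 0.05, and a gene is well expressed when its base mean, the mean normalised read count over the libraries of a table, is 100 or more. The shares of all tested and of well-expressed genes called are given beside the first count of mitochondrial ribosomal protein genes in each comparison, since nearly all mitochondrial ribosomal protein genes are well expressed. Unless stated otherwise these shares use the adjusted p, also where they follow a count at an unadjusted p. Mean normalised reads assigned to genes per library (M, mega) were 12.2 M in RIP, 44.2 to 46.95 M in the tables of the first U2OS experiment and 11.99 to 17.9 M in those of the second. The mitochondrial ribosomal protein genes took 0.748% of gene reads in RIP and 0.263% to 0.395% in U2OS. For both U2OS experiments the whole read counts behind the deposited means could be recovered for all 78 genes in every library, and they are given as normalised reads for libraries a and b of a group, a naming that pairs nothing across groups. The targeted genes were checked first. G3BP1 mRNA in the authors' deposited table was lower in the knockout than in wild type by 0.56 on the log2 scale (SE 0.05), so its transcript remained detectable. Against the untreated knockout it was higher by 7.31 in the wild-type rescue and by 7.75 in the NTF2-deletion rescue of the second experiment, but in the first experiment the knockout was lower than the rescue by only 0.69. G3BP2, the other gene targeted, had 8532 and 8022 normalised reads in wild type and 6532 and 6318 in the first knockout, a log2 value of -0.36 (SE 0.06, adjusted p 1.27e-09; authors' deposited table). In the second experiment G3BP2 had 1456 and 1424 in the knockout, 2102 and 2129 in the wild-type rescue and 2110 and 2177 in the NTF2-deletion rescue, higher by 0.55 (SE 0.08) and 0.57 (SE 0.08) in the authors' deposited table. Transcripts of both targeted genes thus remained in the knockout libraries. G3BP1 alone made up 4.51% of gene reads over the wild-type rescue libraries and 5.70% over the NTF2-deletion rescue libraries of the second experiment. U2OS markers such as COL1A1, SPARC, VIM, THY1 and CD44 were high in both U2OS experiments, but COL1A2 was near 0, with base means of 17.5 and 8.99. In the 293 libraries NEFL and LIN28B were present and NEFM was at a base mean of only 4.87. Of the markers of other cells, EPCAM alone was above a base mean of 100 in RIP (911) and in the first U2OS experiment (453), and PTPRC, CD3E, ALB, HBB and PECAM1 were all under 25.

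The bases before the start sites are shown for some members named in the results, with MRPL36 added to show 2 motifs side by side. Whether promoter sequence has a part in any comparison was not tested. RefSeq promoters (GRCh38.p14) matched 69 of the 78 symbols. Each line gives the 120 bases that end just before the annotated start, 5′ to 3′ on the strand of the gene. Capitals mark matches, on either strand, to GCGCA followed by any base and GCGC (a motif of NRF1, a regulator of nuclear genes for mitochondrial proteins), CCGGAAG (the ETS family, which includes GABP) or AANATGGCG (YY1).
MRPL17, chr11:6683341-6683460, minus strand: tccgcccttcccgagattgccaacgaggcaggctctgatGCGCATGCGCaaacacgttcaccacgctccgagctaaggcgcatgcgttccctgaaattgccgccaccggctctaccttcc
MRPL43, chr10:100987498-100987617, minus strand: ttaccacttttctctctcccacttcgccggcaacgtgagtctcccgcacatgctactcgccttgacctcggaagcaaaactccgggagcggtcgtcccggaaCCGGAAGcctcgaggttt
MRPS34, chr16:1773135-1773254, minus strand: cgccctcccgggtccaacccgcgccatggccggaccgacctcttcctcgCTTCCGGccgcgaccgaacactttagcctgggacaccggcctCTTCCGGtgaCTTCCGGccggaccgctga
MRPS23, chr17:57850045-57850164, minus strand: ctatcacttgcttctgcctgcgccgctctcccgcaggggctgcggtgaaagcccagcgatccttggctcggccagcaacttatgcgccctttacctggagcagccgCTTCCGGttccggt
MRPL3, chr3:131502972-131503091, minus strand: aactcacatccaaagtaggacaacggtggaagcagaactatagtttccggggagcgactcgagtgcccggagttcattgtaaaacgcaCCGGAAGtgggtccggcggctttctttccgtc
MRPL33, chr2:27771599-27771718, plus strand: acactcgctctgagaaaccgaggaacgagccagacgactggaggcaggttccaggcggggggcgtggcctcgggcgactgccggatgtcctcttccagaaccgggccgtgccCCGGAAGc
MRPL36, chr5:1799838-1799957, minus strand: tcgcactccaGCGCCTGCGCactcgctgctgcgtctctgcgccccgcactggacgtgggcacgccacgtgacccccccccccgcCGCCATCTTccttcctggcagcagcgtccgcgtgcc
MRPL18, chr6:159789692-159789811, plus strand: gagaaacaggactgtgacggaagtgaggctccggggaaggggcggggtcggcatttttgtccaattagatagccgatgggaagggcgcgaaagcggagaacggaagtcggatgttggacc

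MRPL17, MRPL43 and MRPS34 had the highest IP over input, MRPS23 was higher in the rescue in both experiments, MRPL3 was among the genes furthest apart between arsenite-treated rescue and knockout, MRPL33 had the lowest value in the rescues, and MRPL18 was the gene that rose with arsenite in the knockout. MRPS34 holds 3 ETS matches in this stretch, while the MRPL18 stretch holds no match to these letters. Within 250 bases before to 50 bases after the start, the ETS letters were found in 29 of the 69 promoters (42.0%), against 10.7% of all 27305 RefSeq promoters and 21.0% of the 8397 promoters of well-expressed genes in the wild-type rescue comparison. The YY1 letters were found in 18 (26.1%), against 3.37% of all promoters and 7.86% of the expressed ones. The NRF1 letters were found in 8 (11.6%), above the 6.28% of all promoters but not above the 13.0% of expressed ones. Some leading genes are not printed: MRPS2, MRPS35, MRPL19 and MRPS7 held no NRF1, ETS or YY1 letters in that window. MRPS12, also not printed, held the ETS letters and MRPS30 the YY1 letters. CCAAT, the NF-Y motif, was found in 29.0% against 36.8% of expressed promoters, and TATAAA in 2 of 69. The median log2 fold change of the wild-type rescue over the knockout was 0.51 for 27 genes with the ETS letters and 0.69 for 37 without, and 0.82 for 15 genes with the YY1 letters and 0.63 for 49 without. A match is a description of letters only, and 4 of the 69 promoters hold both the ETS and the YY1 letters, with 0 in which these share bases.

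The first question was which mRNAs co-purified with G3BP1. Nearly all mitochondrial ribosomal protein mRNAs were higher in the G3BP1 immunoprecipitate than in the input. In the authors' deposited table, 71 of 77 tested genes were higher and 3 were lower, where 24.7% of all tested genes were higher and 31.4% lower. Among well-expressed genes 44.4% were higher and 38.6% lower. The median log2 fold change of the mitochondrial ribosomal protein genes was 1.36, against 0.12 for all well-expressed genes. By symbol, 44 of 48 tested MRPL genes and 27 of 29 MRPS genes were higher.

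MRPL17, a large-subunit protein near the exit of the peptide tunnel, had the highest value, 2.28 on the log2 scale or 4.85-fold (SE 0.15, adjusted p 1.73e-53, authors' deposited table). MRPL43, a large-subunit protein without a bacterial counterpart, followed at 1.94 (SE 0.11), and MRPS34, a small-subunit protein needed for that subunit's stability, at 1.93 (SE 0.14) in the authors' deposited table. The 69 well-expressed genes that were higher ran from 1.29-fold to 4.85-fold with a median of 2.63-fold. MRPL42 and MRPS25, proteins specific to the mitochondrial ribosome, were lower in the authors' deposited table, by small amounts: MRPL42 at -0.40 (SE 0.16, adjusted p 0.0229) and MRPS25 at -0.34 (SE 0.11, adjusted p 0.00439). MRPL38 was also lower, at -1.63 (SE 0.33, adjusted p 2.72e-06), but on a base mean of 45.8, under the level set for naming; it is named because only 3 genes were lower. MRPL19, MRPL46 and MRPS24 were not called.

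**Figure D1:**
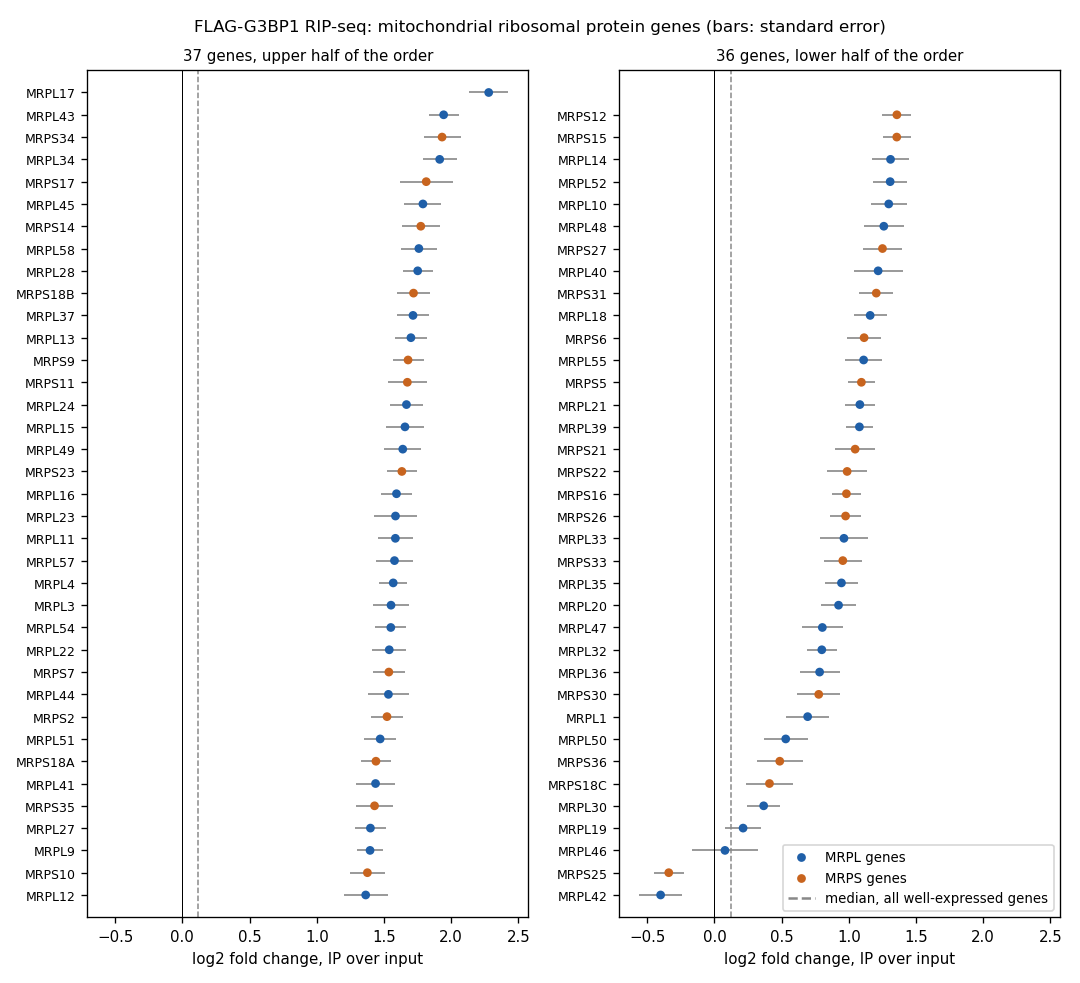
Log2 fold change of IP over input (x axis) in the authors' deposited table for the 73 mitochondrial ribosomal protein genes that were well expressed in RIP, ordered by value and split over 2 panels. Points are MRPL genes (blue) and MRPS genes (orange), bars are standard errors, and the dashed line is the median of all well-expressed genes, 0.12. Blue and orange points are mixed along the order from MRPL17 at 2.28 to MRPL42 at -0.40.

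Genes with a fixed place in the report spread over the whole range. MRPL58, a peptidyl-tRNA hydrolase that is also a large-subunit protein, stood at 1.76 in the authors' deposited table, MRPL12, the stalk protein that binds translation factors, at 1.36, and MRPS12, a protein of the decoding centre, at 1.36. MRPS27, a pentatricopeptide repeat protein, stood at 1.25 in the authors' deposited table, MRPL18 at 1.16 and MRPS16 at 0.98. The MRPS18 paralogs differed from each other: MRPS18B at 1.72 (SE 0.13) and MRPS18A at 1.44 (SE 0.11) were far above MRPS18C at 0.41 (SE 0.17) in the authors' deposited table, and the differences between paralogs were not tested. MRPS36 was at 0.49 (SE 0.17). When all values were centred on the median of well-expressed genes, MRPS18C and MRPS36 were no longer called.

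Other gene lists in RIP differed in how many members were higher. Cytosolic ribosomal protein mRNAs were higher for 74 of 83 tested genes (median 1.20), and nuclear-encoded subunits of respiratory complexes I, IV and V for 58 of 66 (median 1.17). Transcripts made inside mitochondria had no member higher among 15 tested and 3 lower by the authors' DESeq2 test, none higher and 3 lower at an unadjusted p under 0.05, with a median of -0.53. Mitochondrial translation factors were split, with 11 of 15 higher and 2 lower: MTFMT, which formylates the initiator tRNA, was at 1.66 and TUFM, the elongation factor, at 1.36, while LRPPRC, an mRNA-stabilising protein, was at -2.84 and the elongation factor GFM1 at -1.03 in the authors' deposited table. Ribosome assembly factors were higher for 16 of 25 and lower for 4, from MALSU1 at 2.25 to MTG1 at -1.17. Nuclear regulators were higher for 3 of 9 and lower for 5, with a median of -0.54. Mitochondrial ribosomal protein genes are short: their median genomic span was 9172.5 bases against 33234.5 for all genes compared. Across 10152 genes span and RIP value had a Spearman correlation of -0.51. Of the 2346 other genes with a span between 4691.5 and 17240 bases, the middle range of the mitochondrial ribosomal protein genes, 65.6% were higher and 17.1% lower, with a median of 0.73. Within the 72 mitochondrial ribosomal protein genes with a span the correlation was -0.13. The part of gene length in the RIP values was not tested. The count depends on how wide the statistics of this table are: with every Wald statistic divided by their robust spread over all genes (3.84), 33 of the 77 genes were higher and 0 lower.

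The rescue comparisons of the second U2OS experiment asked how expression changes when G3BP1 is returned to knockout cells. Mitochondrial ribosomal protein mRNAs were higher in the cells given wild-type G3BP1 than in the untreated knockout. In the authors' deposited table, 56 of 77 tested genes were higher and 0 lower (60 and 0 at an unadjusted p under 0.05), where 23.0% of all tested genes were higher and 19.1% lower (41.0% and 24.2% of well-expressed genes). The summed normalised reads of the 78 genes were 31363 and 32208 in the knockout and 51399 and 51452 in the wild-type rescue. No sum of a rescue library came near those of the knockout. The median log2 ratio from the recovered reads was 0.70, or 1.62-fold, with 70 of 71 genes above 0 among those with mean normalised reads of at least 100 in either group. All well-expressed genes had a median of 0.18 in this table. With all values centred on that median, 46 of the 77 genes were higher and 1, MRPL33, was lower.

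MRPS2, a small-subunit protein with a bacterial counterpart, had 371 and 384 normalised reads in the knockout and 987 and 1030 in the wild-type rescue. Its log2 fold change was 1.40 (SE 0.12, 2.64-fold, adjusted p 4.02e-30; authors' deposited table). MRPS30, a large-subunit protein in spite of its symbol, had 593 and 585 normalised reads in the knockout and 1588 and 1502 in the wild-type rescue, a deposited log2 change of 1.38 (SE 0.10, adjusted p 1.99e-42, authors' deposited table). MRPS35, a small-subunit protein specific to mitochondria, had 427 and 430 in the knockout and 1115 and 1098 in the wild-type rescue, a log2 change of 1.36 (SE 0.11, adjusted p 1.77e-31; authors' deposited table). In each of these 3 genes the rescue libraries lay far above the knockout libraries, with no overlap. The 55 well-expressed genes that were higher ran from 1.14-fold to 2.64-fold with a median of 1.70-fold.

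A minority did not follow in the wild-type rescue. MRPL33, a small large-subunit protein, had 620 and 643 normalised reads in the knockout and 544 and 521 in the wild-type rescue, the only gene with a value below 0 (-0.24, SE 0.13, adjusted p 0.114, authors' deposited table). MRPS16, a small-subunit protein with a bacterial counterpart, had 1615 and 1719 in the knockout and 1658 and 1788 in the wild-type rescue, so its groups overlapped (0.05, SE 0.08, adjusted p 0.705, authors' deposited table). In the NTF2-deletion rescue MRPS16 had 2015 and 1948 and was the lowest well-expressed gene called higher (0.25). In the first experiment it had 7026 and 6890 in the knockout and 8475 and 8163 in the rescue, a knockout value of -0.26 (authors' deposited table). MRPS36 had 142 and 140 in the knockout and 170 and 207 in the wild-type rescue and was not called (adjusted p 0.156 in the authors' deposited table).

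Rescue with the NTF2-domain deletion also went with higher mRNA of these genes. In the authors' deposited table, 66 of 77 were higher and 0 lower than in the knockout (68 and 0 at an unadjusted p under 0.05), where 22.8% of all tested genes were higher and 18.7% lower (40.5% and 24.0% of well-expressed genes). The sums of the 78 genes were 54557 and 53952 normalised reads, and the median log2 ratio was 0.75. MRPS2 had 1081 and 948 normalised reads (log2 fold change 1.41, SE 0.13), MRPS35 had 1143 and 1141 (1.40, SE 0.11) and MRPS12 had 777 and 725 against 285 and 277 in the knockout (1.40, SE 0.14, authors' deposited table). Centred on the median of all well-expressed genes in that table (0.17), 54 of the 77 were higher and 1, MRPL33, was lower. The 2 rescue comparisons share the knockout libraries, so the difference of the rescues was tested by itself. Between wild-type and NTF2-deletion rescue 0 of 77 genes differed in either direction by a two-sided normal test on the difference of the deposited values, and 0 did so at an unadjusted p under 0.05. The values leaned one way, since 62 of 77 were lower in the wild-type rescue, with a median of -0.08. This lean over genes of the same libraries is a description and was not tested. Of all 16210 genes tested, 0.00% were higher and 0.0185% lower (0.00% and 0.00934% of well-expressed genes), so this test, which counts the error of the shared knockout in both terms, made few calls anywhere.

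**Figure D2:**
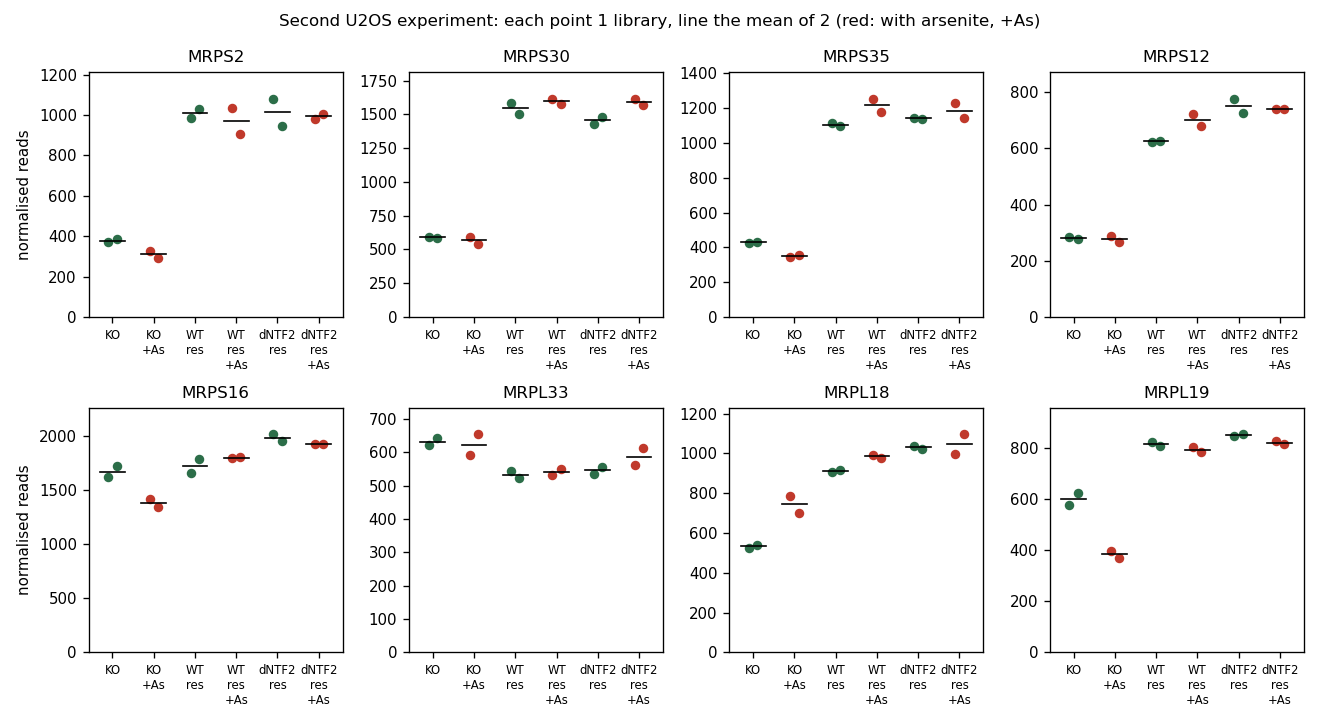
Normalised reads (y axis, starting at 0) of 8 genes in the 12 libraries of the second U2OS experiment; each point is 1 library, each line the mean of a group, red points had arsenite. KO is the knockout, WT res the rescue with wild-type G3BP1, dNTF2 res the rescue with the NTF2-domain deletion and As arsenite. MRPS2, MRPS30, MRPS35 and MRPS12 sit in a low knockout pair of groups and a high set of rescues, MRPS16 and MRPL33 lack a step of that size, and the arsenite-treated knockout is the high knockout group for MRPL18 and the low one for MRPL19.

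The contrast held for similar numbers of genes under arsenite. The arsenite-treated rescues were deposited against the untreated knockout: 62 of 77 genes were higher and 0 lower with wild-type G3BP1 (63 and 0 at an unadjusted p under 0.05; 25.1% and 19.8% of all tested genes, 44.9% and 25.4% of well-expressed ones), and 66 and 0 with the NTF2-domain deletion (70 and 0 unadjusted; 23.3% and 19.6% of all tested genes, 42.2% and 25.5% of well-expressed ones) in the authors' deposited table. In the first of these MRPS35 stood at 1.499, MRPS30 at 1.43 and MRPS2 at 1.35, and in the second MRPS35 at 1.46, MRPS30 at 1.43 and MRPL21 at 1.40, each from the authors' deposited table. Against the arsenite-treated knockout, by the test of the difference of deposited values, 60 genes were higher and 0 lower in the wild-type rescue (61 and 0 unadjusted; 26.1% and 19.3% of all tested genes, 36.7% and 20.6% of well-expressed ones) and 61 and 0 in the NTF2-deletion rescue (65 and 0 unadjusted; 24.3% and 19.2% of all tested genes, 34.3% and 20.4% of well-expressed ones). MRPS35 led at 1.77 (SE 0.18) and 1.73 (SE 0.18), followed by MRPS2 at 1.62 and 1.65, and by MRPL3, a large-subunit protein with a bacterial counterpart, at 1.56 and 1.61. MRPL3 had 559 and 571 normalised reads in the arsenite-treated knockout, 1695 and 1669 in the arsenite-treated wild-type rescue and 1729 and 1774 in the arsenite-treated NTF2-deletion rescue. The lowest differences called for the wild-type rescue were those of MRPS16 (0.38, SE 0.12), MRPL18 (0.42, SE 0.16) and MRPL17 (0.45, SE 0.20). MRPS16 and MRPL18 were no longer called once differences were centred on their median over well-expressed genes, and the counts were then 51 higher and 1 lower, MRPL33.

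The first U2OS experiment included wild-type cells, which places the rescue against both genotypes. Most mitochondrial ribosomal protein genes were higher in the G3BP1 rescue than in either genotype. Their summed normalised reads were 149619 and 144659 in wild type, 143963 and 142365 in the knockout and 185983 and 191286 in the rescue. In the authors' deposited table, 57 of 77 genes were lower and 0 higher in the knockout than in the rescue (61 and 0 at an unadjusted p under 0.05), where 21.5% of all tested genes were lower and 16.1% higher (32.7% and 23.4% of well-expressed genes). In the authors' deposited table, 59 of 77 were lower and 0 higher in wild type than in the rescue (62 and 1 unadjusted), where 20.4% of all tested genes were lower and 15.2% higher (30.7% and 23.0% of well-expressed genes). The median log2 ratios were -0.37 and -0.36, against medians of -0.05 and -0.04 for all well-expressed genes. Both comparisons share the rescue libraries, and G3BP1 mRNA itself was 0.15 lower on the log2 scale in wild type than in the rescue.

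MRPS2 had 1753 and 1717 normalised reads in the knockout and 2967 and 2990 in the rescue, and 2919 and 2630 in wild type. Its knockout libraries were the low ones (log2 fold change against the rescue -0.77, SE 0.07, adjusted p 3.01e-26, authors' deposited table). MRPS35 had 2170 and 2200 in the knockout, 3565 and 3832 in the rescue and 3186 and 3293 in wild type (-0.75, SE 0.07, adjusted p 1.06e-26, authors' deposited table). MRPL35, a large-subunit protein with a bacterial counterpart, had 1522 and 1483 in the knockout, 2536 and 2544 in the rescue and 2440 and 2434 in wild type (-0.75, SE 0.07, adjusted p 4.83e-22, authors' deposited table). For these 3 genes wild type lay nearer to the rescue than to the knockout.

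The genes furthest apart between wild type and rescue had a different order of groups. MRPS34 had 2577 and 2321 normalised reads in wild type, 4159 and 3866 in the knockout and 4523 and 5063 in the rescue. Wild type was lower than the rescue by 0.97 on the log2 scale (SE 0.07, adjusted p 8.39e-38, authors' deposited table). MRPS17, a small-subunit protein with a bacterial counterpart, had 279 and 239 in wild type, 409 and 433 in the knockout and 505 and 478 in the rescue (-0.86, SE 0.16, adjusted p 1.96e-07, authors' deposited table). MRPS23, a small-subunit protein specific to mitochondria, had 3200 and 3106 in wild type, 3992 and 3785 in the knockout and 4827 and 5173 in the rescue (-0.67, SE 0.06, adjusted p 5.53e-26, authors' deposited table). In these 3 genes wild type was the low group and did not overlap the other groups.

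The rescues of the first and second experiments share no library. Of the 57 genes lower in the knockout than in the first rescue and the 56 higher in the second wild-type rescue than in its knockout, 50 were in both lists, 87.7% of the first and 89.3% of the second. Over all genes the lists held 4925 and 4777 genes with 2942 in both, 59.7% and 61.6%. Across the 70 genes well expressed in both, the log2 changes towards the rescue had a Pearson correlation of 0.65 and a Spearman correlation of 0.63; the points share cell line, gene length and base composition, and the correlation is a description across genes. MRPS2 and MRPS35 were at the top in both, and MRPL33, MRPS14 and MRPS16 were at the bottom or not called in the second wild-type rescue.

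**Figure D3:**
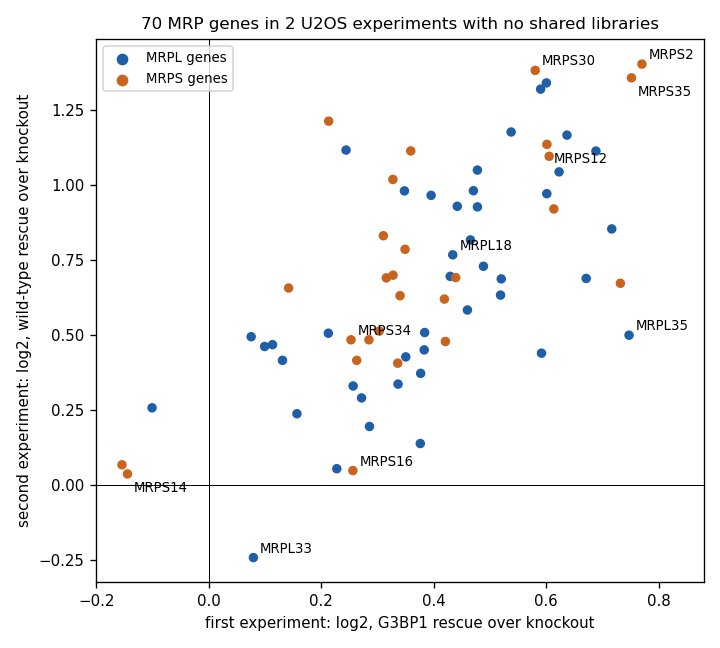
Each point is 1 of 70 mitochondrial ribosomal protein genes well expressed in both comparisons; the x axis is the log2 change from knockout to G3BP1 rescue in the first U2OS experiment (the sign of the deposited value turned) and the y axis that from knockout to wild-type rescue in the second. Points run from the lower left to MRPS2 at 0.77 and 1.40, and MRPL33 is the only point below 0 on the y axis.

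Knockout against wild type asked what loss of G3BP1 and G3BP2 does to unstressed cells. No common direction was seen for these genes: in the authors' deposited table, 14 of 77 were higher and 18 lower in the knockout, where 18.4% of all tested genes were higher and 19.4% lower (27.8% and 30.4% of well-expressed genes), and the median was -0.00. By symbol, 6 MRPL genes were higher and 12 lower of 48, and 8 MRPS genes higher and 6 lower of 29. The members' counts amount to shares near those of all genes and below those of well-expressed genes. MRPS34 was highest in the knockout at 0.71 (SE 0.08, adjusted p 2.31e-19), followed by MRPS17 at 0.67 (SE 0.17, adjusted p 0.000455) and MRPS6, a small-subunit protein with a bacterial counterpart, at 0.47 (SE 0.13, adjusted p 0.00169; authors' deposited table). MRPS6 had 478 and 484 normalised reads in wild type and 677 and 663 in the knockout. MRPL35 was lowest at -0.69 (SE 0.08, adjusted p 9.55e-17), followed by MRPS2 at -0.67 (SE 0.08, adjusted p 3.84e-15) and MRPS7, a protein of the small-subunit head, at -0.63 (SE 0.08, adjusted p 1.96e-15; authors' deposited table). MRPS7 had 2905 and 2901 normalised reads in wild type and 1806 and 1930 in the knockout, with no overlap.

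The values were set beside those of nearby genes. For each of 75 genes the mean log2 fold change of its 10 nearest expressed genes was taken, and across the 75 genes it had a Pearson correlation of 0.44 and a Spearman correlation of 0.39 with the gene's own value. The median of the nearest genes was 0.08 for the 14 genes higher in the knockout, -0.20 for the 18 lower and -0.01 for the 43 not called. Of the 14 higher calls 8 had the sign of their nearest genes and 6 the opposite sign, and of the 18 lower calls 13 had the same sign and 5 the opposite. Among the 43 genes not called, 27 had the same sign. MRPS34, MRPS6, MRPS2, MRPL35 and MRPS7 had the sign of their nearest genes and MRPS17 the opposite one. The correlation was also above 0 in knockout against rescue (Pearson 0.37, Spearman 0.42) and in wild type against rescue (0.28 and 0.29), comparisons that share libraries with this one. In the second experiment it was 0.20 and 0.20 for the wild-type rescue against the knockout and 0.19 and 0.18 for the NTF2-deletion rescue. In RIP it was 0.12 and 0.10. Neither the correlation nor the counts of equal sign were computed for other genes, so nothing particular to these genes can be read from them. The labels do not say whether the knockout is 1 clone.

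**Figure D4:**
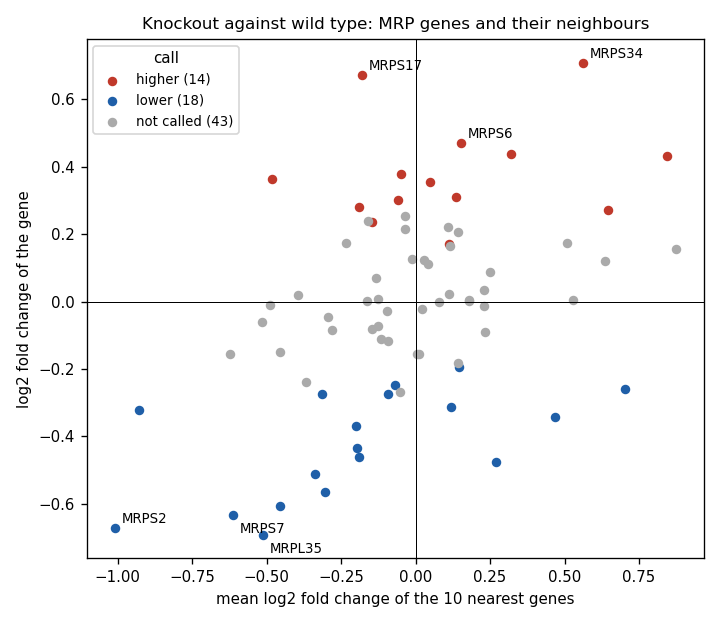
Log2 fold change of knockout over wild type for each of 75 mitochondrial ribosomal protein genes (y axis, authors' deposited table) against the mean of the 10 nearest genes on the chromosome (x axis, same table); red points were called higher (14), blue lower (18) and grey not called (43). MRPS2, MRPL35 and MRPS7 are at the lower left and MRPS34 at the upper right, while 6 red points lie left of 0 and 5 blue points right of 0.

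Arsenite for 2 h changed few of these mRNAs. In the knockout 1 of 76 tested genes was higher and 6 were lower in the authors' deposited table, where 8.56% of all tested genes were higher and 10.9% lower (10.9% and 15.0% of well-expressed genes). The values as a group lay below 0, with 57 of 76 below it and a median log2 ratio of -0.17. All well-expressed genes had a median of -0.01, and the 2489 other genes in the members' middle range of span had -0.06. The lean was not tested, and genes of the same libraries are no replicates of it. The sum of the 78 genes was 29044 and 28164 normalised reads with arsenite against 31363 and 32208 without. In the wild-type rescue 1 gene was higher and 0 lower by the authors' DESeq2 test. Of all tested genes 8.18% were higher and 12.2% lower (9.82% and 14.6% of well-expressed genes). At an unadjusted p under 0.05 of that test 2 were higher and 4 lower, against 13.8% and 15.8% of all tested genes. In the NTF2-deletion rescue 0 were higher and 0 lower by the authors' DESeq2 test. Of all tested genes 2.43% were higher and 6.14% lower (2.63% and 6.60% of well-expressed genes). At an unadjusted p under 0.05 of that test 1 was higher and 0 lower, against 6.94% and 10.5% of all tested genes. The median log2 ratios of these 2 rescue comparisons were -0.03 and -0.00. The sums in the rescues were 52835 and 52344 normalised reads with arsenite for wild-type G3BP1 and 54362 and 55445 for the NTF2-domain deletion, against 51399 to 54557 without it.

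MRPL18 was the gene that rose in the knockout. It is a large-subunit protein for which a cytosolic form made under heat stress has been described. It had 526 and 540 normalised reads in the knockout without arsenite and 786 and 701 with it (log2 fold change 0.46, SE 0.12, adjusted p 0.00151, authors' deposited table). The wild-type rescue had 908 and 915 without and 994 and 978 with arsenite, and the NTF2-deletion rescue 1039 and 1024 without and 996 and 1097 with, values of 0.05 and 0.00 in the authors' deposited table, neither called. The knockout started low and moved towards the level of the rescues. The difference between the response in the NTF2-deletion rescue and in the knockout was -0.46 (SE 0.15, adjusted p 0.0321), and that between the wild-type rescue and the knockout was -0.41 and was not called; it was called when the adjustment ran over well-expressed genes alone (adjusted p 0.0447). TCP1, the chaperonin gene next to MRPL18 that starts from the same region in the opposite direction, was higher with arsenite in the knockout by 0.20 (adjusted p 0.0191) and in the wild-type rescue by 0.13 (adjusted p 0.00363; authors' deposited table), but not called in the NTF2-deletion rescue (0.08). IGF2R, on the other side, was lower in all 3 groups in the authors' deposited table, at -0.22 (adjusted p 0.00147) in the knockout, -0.33 (adjusted p 9.12e-22) in the wild-type rescue and -0.16 (adjusted p 0.000516) in the NTF2-deletion rescue.

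MRPL19, a large-subunit protein with a bacterial counterpart, fell most. It had 578 and 624 normalised reads in the knockout without arsenite and 396 and 370 with it (-0.62, SE 0.13, adjusted p 5.19e-05, authors' deposited table). It had 823 and 810 without and 805 and 783 with arsenite in the wild-type rescue, and 847 and 856 without and 827 and 816 with it in the NTF2-deletion rescue. The fall was seen in the knockout libraries without overlap, and its difference from the rescues was called for both, at 0.52 (SE 0.15, adjusted p 0.0163) for wild-type G3BP1 and 0.56 (SE 0.16, adjusted p 0.00976) for the NTF2-domain deletion. MRPL40 fell to -0.37 (SE 0.14, adjusted p 0.0385) and MRPL3 to -0.35 (SE 0.12, adjusted p 0.0181; authors' deposited table). MRPL51, MRPL11 and MRPS16 also fell in the knockout. MRPL40 and MRPL11 were no longer called without the authors' independent filter. MRPL51, a large-subunit protein specific to mitochondria, had 1697 and 1766 normalised reads without and 1368 and 1397 with arsenite in the knockout, and 2096 and 2088 without and 2083 and 2137 with it in the NTF2-deletion rescue. Its response differed between these by 0.32 (SE 0.11, adjusted p 0.041), a call that was lost when differences were centred (adjusted p 0.0612) or shrinkage was undone (adjusted p 0.0522).

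By the same test 1 of 77 genes, MRPL19, had a higher response in the wild-type rescue than in the knockout, and 0 a lower one. Of all tested genes 1.82% were higher and 2.68% lower (2.69% and 3.63% of well-expressed genes). At an unadjusted p under 0.05 of this test the counts were 7 and 1, against 6.70% and 6.35% of all tested genes. In the NTF2-deletion rescue 2 were higher and 1 lower than in the knockout. Of all tested genes 4.04% were higher and 3.08% lower (5.83% and 3.95% of well-expressed genes). Unadjusted, the counts were 5 and 2, against 8.83% and 6.99% of all tested genes. Between the rescues 0 and 0 differed (0.101% and 0.227% of all tested genes, 0.132% and 0.340% of well-expressed ones). Unadjusted, 0 and 0 differed, against 1.14% and 2.90% of all tested genes. MRPS27 was the 1 gene called with arsenite in the wild-type rescue, at 1014 and 1076 normalised reads without and 1238 and 1254 with arsenite (0.19, SE 0.06, adjusted p 0.0129, authors' deposited table). In the NTF2-deletion rescue it had 1111 and 1052 without and 1142 and 1257 with it, which was not called (0.12, SE 0.08, adjusted p 0.493, authors' deposited table).

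**Figure D5:**
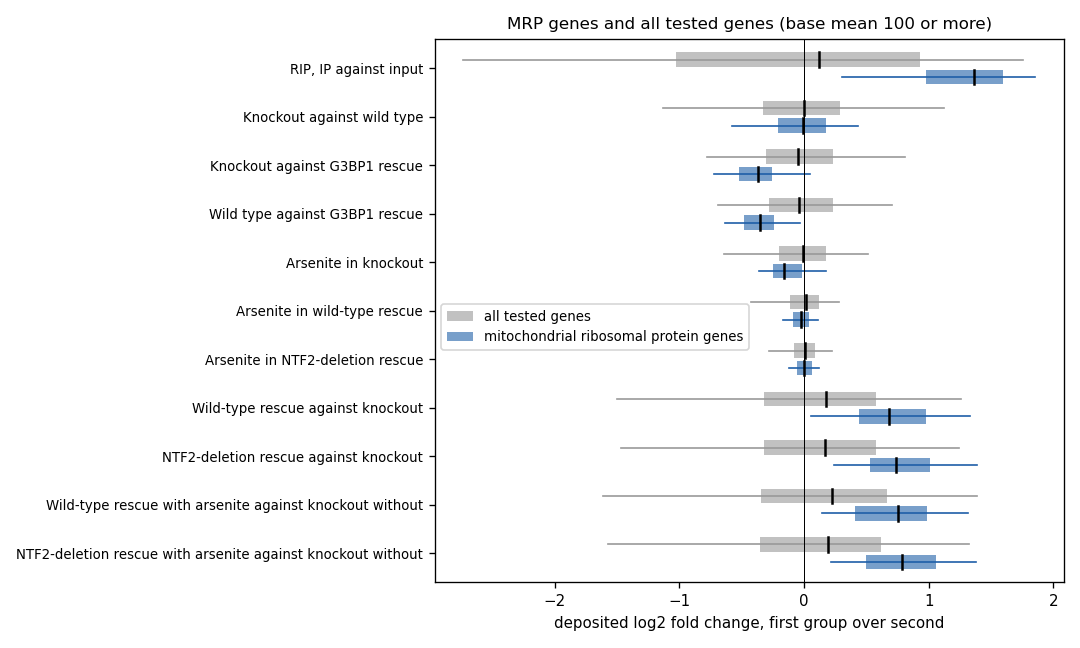
Deposited log2 fold changes (x axis) in the 11 comparisons for the mitochondrial ribosomal protein genes (blue) and all tested genes (grey), well-expressed genes in both cases; boxes are the middle 50% of genes, thin lines run from the 5th to the 95th percentile and black bars are medians. The blue medians lie apart from the grey ones in RIP (1.36 against 0.12) and in the comparisons with a rescue, and at the grey ones in knockout against wild type and under arsenite in the rescues.

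Some further U2OS values of the genes with a fixed place are given here, and not every comparison is listed for each gene. MRPL12, which also binds the mitochondrial RNA polymerase, had few reads, 50 and 57 in the knockout and 117 and 118 in the wild-type rescue of the second experiment, and was higher there (1.05, SE 0.31, adjusted p 0.00198, authors' deposited table). In the first experiment its knockout value against the rescue was -0.41 (SE 0.18), with an adjusted p of 0.0538 in the authors' deposited table. In that same comparison MRPL58 was at -0.62, MRPS18A at -0.61, MRPS12 at -0.60 and MRPS18B at -0.44. MRPL18 was at -0.43, MRPS18C at -0.33 and MRPS27 at -0.32 there. MRPL58 had 147 and 179 normalised reads in the knockout and 358 and 325 in the wild-type rescue (1.04, SE 0.20) and was lower in the knockout than in wild type (-0.32, SE 0.12, adjusted p 0.0187, authors' deposited table). MRPS12 had 285 and 277 in the knockout and 622 and 628 in the wild-type rescue (1.14, SE 0.14, authors' deposited table), with no call in knockout against wild type. The 3 MRPS18 paralogs all rose in the wild-type rescue, MRPS18A at 1.10 (SE 0.16), MRPS18C at 1.02 (SE 0.17) and MRPS18B at 0.69 (SE 0.10) in the authors' deposited table. They differed in knockout against wild type, where MRPS18C was higher (0.28, adjusted p 0.022), MRPS18A lower (-0.25, adjusted p 0.0428) and MRPS18B not called (0.01) in the authors' deposited table.

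Other gene lists of mitochondrial translation had no lower call in the second wild-type rescue, where 23.0% of all tested genes and 41.0% of well-expressed genes were higher and 19.1% and 24.2% lower. The 5 mitochondrial ribosome proteins whose symbols fall outside the rule were all higher in the wild-type rescue than in the knockout, among them DAP3 at 0.85, GADD45GIP1 at 0.80, PTCD3 at 0.41 and CHCHD1 at 0.39 in the authors' deposited table. Of 15 translation factors 10 were higher and 0 lower (10 in all at an unadjusted p under 0.05), with the cytochrome oxidase translation activator TACO1 at 1.46 and the initiation factor MTIF2 at 1.28 in the authors' deposited table. Of 25 assembly factors 15 were higher and 0 lower (16 unadjusted), with the rRNA methyltransferase MRM1 at 1.495 and FASTKD2 at 1.32 in the authors' deposited table. Of 5 transcription genes 4 were higher and 0 lower (4 unadjusted), with TFB2M at 1.55 and the RNA polymerase POLRMT at 1.33 in the authors' deposited table. Of 9 nuclear regulators 6 were higher and 0 lower (6 unadjusted), with MYC at 2.37 and PPARGC1B at 1.61 in the authors' deposited table.

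Genes for the respiratory chain differed from these in their counts. Nuclear-encoded subunits of complexes I, IV and V were higher for 22 of 65 genes (33.8%) and lower for 3 in the wild-type rescue (median 0.21), against 41.0% and 24.2% of well-expressed genes. Mitochondrially encoded transcripts were higher for 6 and lower for 4 of 15 (median -0.02). Cytosolic ribosomal protein genes were higher for 77 of 84 and lower for 1 (median 0.55). In the first experiment the knockout was lower than the rescue for 75 of 84 cytosolic ribosomal protein genes (median -0.35) and for 42 of 66 respiratory subunits, but higher for 14 of 15 mitochondrially encoded transcripts (median 0.45), against 32.7% of well-expressed genes lower and 23.4% higher. Those transcripts were also higher in the knockout than in wild type for 14 of 15 (median 0.73), with the ribosomal RNA MT-RNR1 at 1.36 and ND6 at -0.93 in the authors' deposited table, where 27.8% of well-expressed genes were higher. With arsenite in the knockout 10 of 15 were higher (median 0.30), against 10.9% of well-expressed genes. The mitochondrial ribosomal protein genes showed no such rise in either comparison.

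RIP values and rescue values did not line up across the mitochondrial ribosomal protein genes. Over the 70 genes well expressed in both, the Pearson correlation of the RIP value with the wild-type rescue value was -0.05 and the Spearman correlation -0.09. The cell lines and libraries differ between these measures. Reads of some members can be shared with other genes. Of the 77 members with a RefSeq position 32 overlap another annotated gene, and MRPS36 could not be looked up. Among the 32 are MRPS34 (EME2), MRPL43 (SEMA4G), MRPS7 (GGA3 and MIF4GD) and MRPL19 (SUPT4H1P1). A mitochondrial ribosomal protein name is also carried by 79 pseudogenes, 6 of them at a base mean of 10 or more in knockout against wild type. Whether counting used the strand is not given in the sources used here, so values of overlapping genes are uncertain to that extent.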

How the data were processed

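RNA was sequenced from 24 libraries in 11 groups, and 11 tables compare them. Per the submitters' processing notes, the tools include STAR 2.7.0f and DESeq2 2.11.40.6; the genome build, annotation and strand of counting are not given in the sources used here. Each deposited table holds, for 61541 Ensembl IDs, the base mean (a signal: mean reads after the authors' size factors), a log2 fold change, its standard error, the authors' Wald score, a p-value and an adjusted p-value from DESeq2; 4 summary lines that name no gene were removed. Fold changes are shrunken, which lowers large values of weakly expressed genes. The shrinkage differed between tables and also touched members with more reads. For arsenite in the NTF2-deletion rescue their median absolute value was 0.056 as deposited and 0.068 from the reads. In the knockout these were 0.174 and 0.183. Differences of 2 deposited values carry this unequal shrinkage, also where their test is called conservative. The RIP table compares 3 libraries with 3 and the other 10 compare 2 with 2.

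The members are the genes whose symbol fits the rule given at the start. The members and gene lists were chosen with earlier results of these data known, and so support nothing by themselves. Calls use the authors' adjusted p under 0.05 over all genes. In each comparison the 3 highest and 3 lowest called members whose base mean is 100 or more are named (those called, if fewer). MRPL12, MRPL18, MRPL58, MRPS12, MRPS16, MRPS18A, MRPS18B, MRPS18C, MRPS27 and MRPS36 had a fixed place and are given in some of the comparisons. MRPL33, MRPS14, MRPL38, MRPL42 in counts of 5 or fewer and genes not called were singled out after their values were seen. So were promoters and the 8 plotted genes. For 6 contrasts with no table of their own, the difference of 2 deposited log2 values was divided by the root of the summed squared standard errors and tested with a two-sided normal test, adjusted by Benjamini-Hochberg over genes whose base mean is 10 or more in each of the 2 tables; where the tables share knockout libraries the test is conservative. Tested on simulated data, the recovery of reads returned 24 of 24 genes.

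Whole reads per library were recovered for the U2OS experiments from the base means of the tables that share libraries. The deposited fold changes, still shrunken, served to guide the search. The recovered reads carry no replicate label. They are shown on the scale of the untreated knockout of each experiment. Ratios use each table's own size factors, which shifts them by 0 to -0.06 on the log2 scale. RIP reads per library were not worked out. Alternatives were centring, no independent filter, a base mean minimum, rescaled RIP statistics, undone shrinkage and leaving out each library. Python 3.11.15, pandas 2.3.3, numpy 2.4.6, scipy 1.17.1 and matplotlib 3.10.9 were used.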

Additional observations from a re-analysis of the deposited data

Results flagged for a closer look

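In 4 cases the response of a gene to arsenite differed between a rescue and the knockout by the test of the difference itself. MRPL19 fell in the knockout and hardly moved in either rescue, a difference of 0.52 for the wild-type rescue and 0.56 for the NTF2-deletion rescue. MRPL51 gave a difference of 0.32 between the NTF2-deletion rescue and the knockout. MRPL18 rose in the knockout, and its difference between the NTF2-deletion rescue and the knockout was -0.46. The knockout libraries are the same in all 4 differences.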

How the results depend on the processing

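Of 98 counts of called genes recomputed under an alternative, 83 stayed within 1.5 times the reported count and 15 did not. Of 600 values of single genes, 573 kept their call, 24 were no longer called and 3 became called. Among values called under either setting 0 turned direction, and a change of sign in values called under neither was not counted. Dividing RIP Wald statistics by their robust spread gave 33 higher and 0 lower. Centring on the median of well-expressed genes gave 1 lower call, MRPL33, in each of the 4 comparisons of a rescue with the untreated knockout and for the wild-type rescue against the knockout when both had arsenite, and counts of 46, 54, 45 and 51 higher in the first 4. Centring, and likewise a base mean minimum of 100, gave 1 higher call in wild type against the G3BP1 rescue (MRPL38), 1 lower call under arsenite in the wild-type rescue (MRPS11) and 1 lower difference of arsenite responses between wild-type rescue and knockout (MRPL18). Centring or undoing shrinkage left 1 higher difference of arsenite responses between NTF2-deletion rescue and knockout (MRPL19). The cause was not tested in any of these. Leaving out 1 library at a time, an alternative chosen after seeing the data, gave 52 median log2 ratios, and the largest shift was 0.053. In 44 the shift was no larger than a spread computed from these same leave-one-out medians. That count therefore cannot show how stable the medians are. Medians near 0 changed sign in 3 comparisons. For arsenite in the wild-type rescue the median became 0.007 without arsenite-treated library a. For knockout against wild type it became 0.018 without wild-type library a. For arsenite in the NTF2-deletion rescue it became 0.003 and 0.0035 without untreated library a or b. No paired analysis was possible because the files hold no values per library for all genes and the recovered libraries carry no replicate numbers. Full refits without a library could not be made for the same reason. With 2 libraries a group, genes with few reads, such as MRPL12 and MRPS24, have wide standard errors; no detection limit was computed.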
